A study of Mus musculus with 8 samples.

Results

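Type I interferon response genes were followed in CD8 memory T cells of aged mice: the antiviral effectors, sensors, transcription factors and regulators whose transcription is switched on when type I interferon binds its receptor. The set was a given list of 39 genes, and each gene was represented by the probe set with the highest mean log2(signal + 5) over 8 Affymetrix Mouse Genome 430 2.0 arrays, among probe sets annotated to that gene alone. Of the 39 genes, 36 had such a probe set, out of 18193 genes on the array with one. Isg15 and Trex1 were only on probe sets annotated to several genes, and Ifi44 was not named in the annotation, so these 3 were not analysed here. Of the 36, 31 were bright enough on average to be tested, and Oas2, Oasl1, Mx2, Stat2 and Ifitm3 were not.

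The study asked how the clonally expanded CD8 memory T cells that arise with age differ from the polyclonal memory cells of the same animal. The labels name no treatment and no transgene for the 4 female mice. Mice 1 and 2 were C57BL/10SnJ aged 20 months, mouse 3 was C57BL/10SnJ aged 23 months and mouse 4 was B10.BR aged 23 months. From spleen and lymph nodes of each mouse, cells that were CD8+ CD122+ MHC II- were sorted into those with the TCR Vb chain of the expansion (the expansion sample) and those without it (the polyclonal sample), so each expansion was selected by its Vb chain, came from a single animal and stands for a single expanded population. The expansion of mouse 1 was of the integrin alpha4-high subclass and those of mice 2, 3 and 4 were alpha4-low. Purity after sorting was 91, 95, 96 and 98% in expansions 1 to 4, and 97, 75, 66 and 97% in the polyclonal samples of the same mice. There was no young or interferon-treated sample, so the values compare the cells of the same aged mice with each other and not with a resting or stimulated state.

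Type I interferons are a family of cytokines, the alpha and beta interferons among them, that nearly all cells can answer. Their receptor, made of Ifnar1 and Ifnar2, activates the kinases Jak1 and Tyk2. A complex that includes Stat2 and Irf9 then binds the interferon-stimulated response element in the promoters of the response genes. In CD8 T cells the signal supports clonal growth and effector differentiation during infection, and many of the response genes are also transcribed at a lower, tonic level in unstimulated cells.

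The promoters of 4 members show what this response element looks like in the gene set: Ifit1 and Ifit3, which hold it as a pair, Rsad2, which holds a single copy, and Bst2, the member whose values differed most between samples. The sequences are the 250 bases upstream of the RefSeq transcription start in GRCm38.p6, 5′ to 3′ on the gene's strand, and the capitals mark the core of the element, GAAA, any 2 bases and GAAA, on either strand. The windows lie at chr19:34640639-34640888 on the plus strand (Ifit1), chr19:34583279-34583528 on the plus strand (Ifit3), chr12:26456453-26456702 on the minus strand (Rsad2) and chr8:71537473-71537722 on the minus strand (Bst2).
Ifit1: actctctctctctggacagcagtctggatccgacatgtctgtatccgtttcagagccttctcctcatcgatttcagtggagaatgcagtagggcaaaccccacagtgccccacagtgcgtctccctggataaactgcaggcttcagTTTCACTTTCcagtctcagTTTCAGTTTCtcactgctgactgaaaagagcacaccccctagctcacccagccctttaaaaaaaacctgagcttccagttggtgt
Ifit3: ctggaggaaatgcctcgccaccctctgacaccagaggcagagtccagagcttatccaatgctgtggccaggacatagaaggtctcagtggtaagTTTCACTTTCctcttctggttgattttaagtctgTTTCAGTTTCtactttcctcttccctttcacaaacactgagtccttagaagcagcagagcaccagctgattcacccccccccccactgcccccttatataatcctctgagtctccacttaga
Rsad2: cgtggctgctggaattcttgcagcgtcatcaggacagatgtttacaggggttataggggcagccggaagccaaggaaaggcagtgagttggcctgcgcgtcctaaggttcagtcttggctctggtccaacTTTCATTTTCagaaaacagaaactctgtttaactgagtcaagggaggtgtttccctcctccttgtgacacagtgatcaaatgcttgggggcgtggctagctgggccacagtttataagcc
Bst2: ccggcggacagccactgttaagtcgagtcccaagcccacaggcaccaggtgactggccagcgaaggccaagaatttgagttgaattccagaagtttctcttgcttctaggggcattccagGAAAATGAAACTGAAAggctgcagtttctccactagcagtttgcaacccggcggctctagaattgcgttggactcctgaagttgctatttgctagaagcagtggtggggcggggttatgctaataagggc

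In Ifit1 the marked copies began 104 and 85 bases before the start, in Ifit3 156 and 122, in Rsad2 120, and in Bst2 a run of 2 overlapping copies began 130 and 124 bases before it. RefSeq promoter windows of 300 bases (250 before and 50 after the start) were given for 29 of the 39 members, in 38 windows. The core stood on either strand in 13 of the 38 windows (34.2%), against 3.44% of all 32851 windows. The gamma-activated site TTCNNNGAA, which reads the same on both strands and can overlap the first motif, stood in 8 of 38 (21.1%), against 8.30% of all. These shares describe the windows, and a match is not a measured binding site.

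The cells and arrays were checked first. Cd8a, which encodes the CD8 alpha chain that the sort selected, read between 13073 and 30815 on every array, and all 8 markers of the CD8 T cell list were above background throughout. Background was set on each array as the 95th percentile of 27 bacterial control probe sets and lay between 33.7 and 61.9. The number of probe sets above it ran from 22050 to 30498, the median signal of an array from 46.5 to 75.1, and the actin 3'/5' ratio, a sign of RNA integrity and of amplification, from 34.9 to 89.7. The scanner records fell into 3 sets, of 4 arrays (mice 1 and 2), of 3 (expansion 3 and the polyclonal samples 3 and 4) and of expansion 4 alone, so that for mouse 4 the record and the group cannot be told apart. Each value is a single array, the precision is limited by the number of mice, and in bulk samples fewer expressing cells and less RNA per cell cannot be told apart.

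By their brightest probe sets, a choice that favours values above background, most interferon response genes were above it in both kinds of cell. Of the probe sets at large (45101 with the 64 controls), 22050 to 30498 were above background on an array. Of the 36 measured members, 26 were above background on all 8 arrays and Mx2 alone on none; between 30 and 33 were above background on any array. The median member level, as log2(signal + 5), was 9.42, 9.07, 9.93 and 10.04 in expansions 1 to 4, and 9.59, 9.95, 9.89 and 9.99 in their polyclonal partners. Group means were 9.61 ± 0.45 and 9.85 ± 0.18 (SD, n = 4 each). The difference of -0.24 was -0.09 over the members that passed the filter, -0.15 after quantile normalization and -0.0016 with the mean of all probe sets of a gene. The groups overlapped, and expansion 2 held the lowest value. The widest gap between partners was in mouse 2, with the expansion below its partner.

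Within the pairs the members went in no common direction. The median member difference, expansion minus polyclonal on the log2 scale, was 0.20 in pair 1, -0.32 in pair 2, 0.27 in pair 3 and 0.07 in pair 4. Over all tested probe sets the same median was 0.06, -0.22, 0.01 and 0.00, so pair 2 was also the pair in which genes at large read lower in the expansion. The number of members higher in the expansion was 22, 15, 23 and 20 of 36. Single genes moved further than the medians: 8, 9, 8 and 4 of the 31 tested members differed by more than 1 log2 unit in pairs 1 to 4 (25.8, 29.0, 25.8 and 12.9%), against 21.6, 28.6, 25.9 and 16.9% of all tested probe sets.

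**Figure D1:**
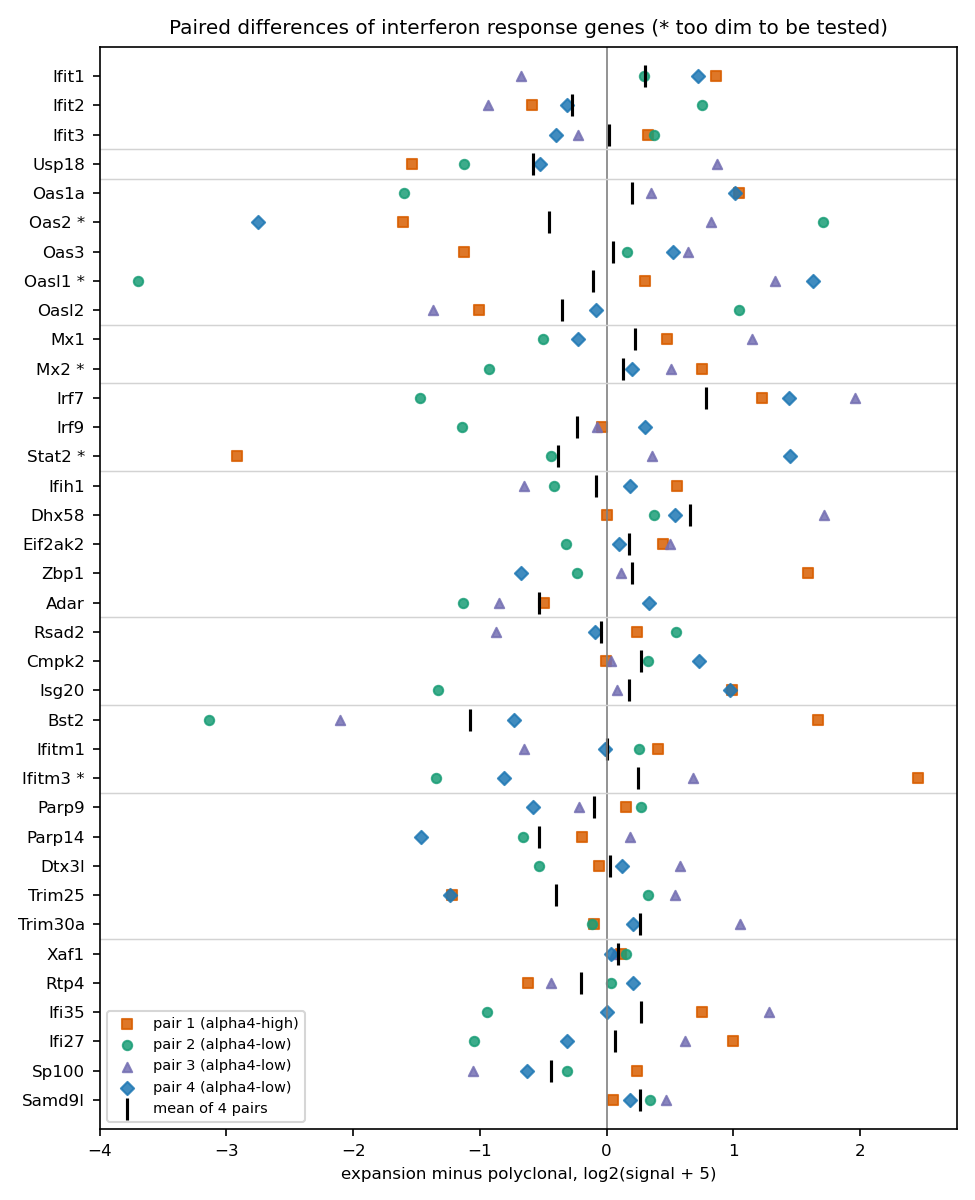
Paired differences of the 36 measured members, in log2(signal + 5), expansion minus polyclonal partner; each coloured point is a mouse, the black bar the mean of 4 pairs, grey lines separate functional groups and * marks the 5 members too dim to be tested. The points of most genes lie on both sides of 0, those of Bst2 from -3.14 to 1.67.

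Over all 4 pairs no interferon response gene passed the threshold of limma. Limma draws the spread of each gene towards that of probe sets of like intensity, so its p does not measure the gene's own spread between mice alone. With the mouse as a block, 0 of 31 tested members passed a limma adjusted p of 0.05, and 0 had an unadjusted p under 0.05 by the chosen probe set; over all 22518 tested probe sets the shares were 0% and 3.25%. The mean difference was positive for 20 and negative for 16 of the 36, with a median of 0.02 (0.03 for the 31 tested), beside -0.04 and 46.1% positive over all tested probe sets. The smallest unadjusted p was 0.124, for Parp14, and the limma adjusted p of every tested member was 0.9998 or above. The median size of a member's difference was 0.24 and its median standard error 0.35, against 0.27 and 0.39 over all tested probe sets.

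The intervals say how large a difference these 4 pairs could still hide. For 13 of the 31 members (41.9%) the 95% interval of limma, unadjusted, lay within 1 log2 unit of 0 on both sides, against 30.7% of all tested probe sets, and for 29 it lay within 2 log2 units. Samd9l had an interval from -0.27 to 0.79 and Trim30a from -0.38 to 0.91, while that of Irf7 reached 2.01 and that of Bst2 -2.58. In the remaining members a change of 1 log2 unit in at least 1 direction would lie inside the interval.

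**Figure D2:**
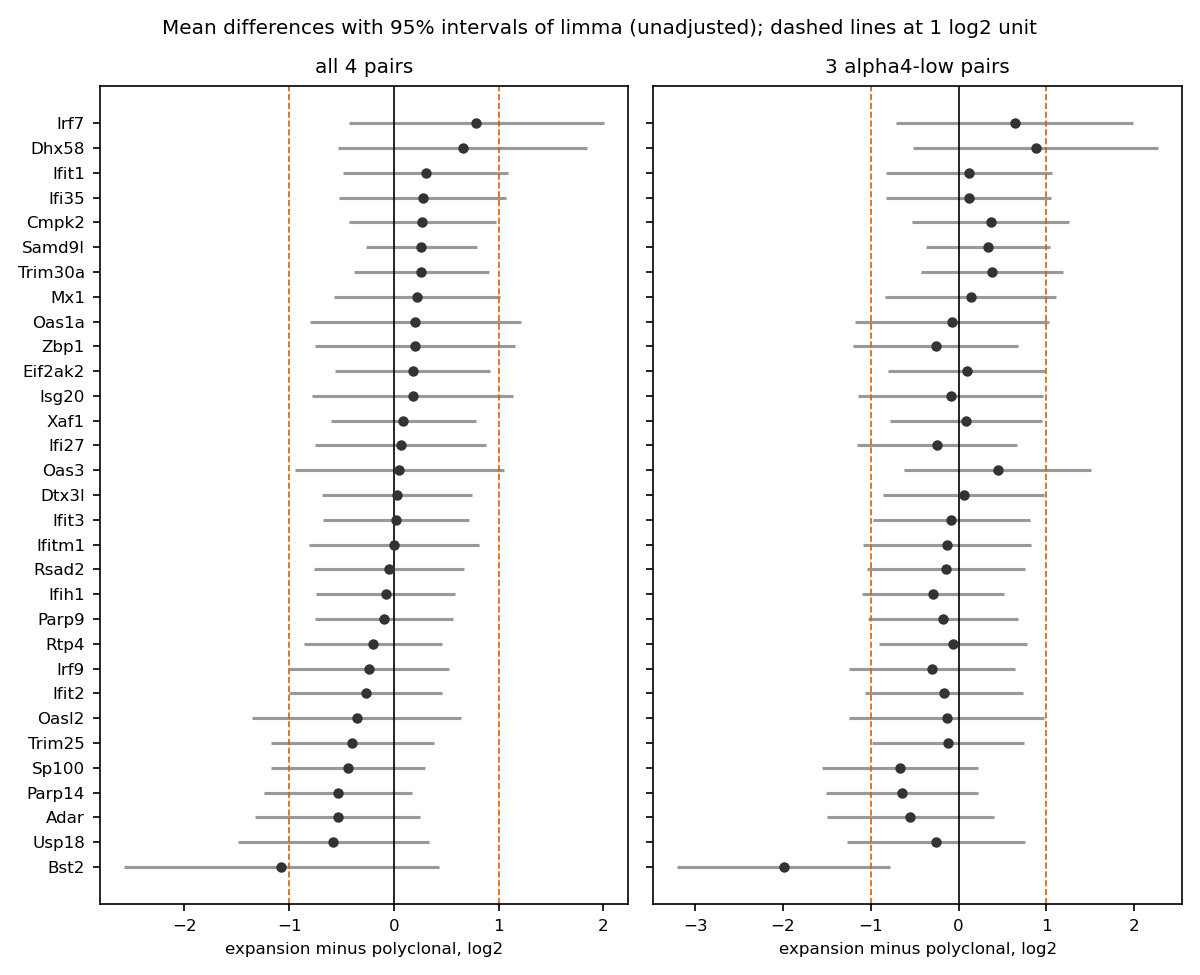
Mean difference of each tested member with its unadjusted 95% limma interval, over all 4 pairs (left) and over the 3 alpha4-low pairs (right), in log2 units; dashed lines stand at -1 and 1. Every interval on the left includes 0, and on the right that of Bst2 alone, from -3.20 to -0.78, does not.

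The transcription factors that carry the signal were unequal in level. Irf9, the DNA-binding part of the complex, read 1229, 607, 1265 and 1039 in expansions 1 to 4 and 1259, 1342, 1330.0 and 843 in the polyclonal samples. Expansion 2 was the low sample of the first group and polyclonal sample 4 that of the second, with a mean difference of -0.24 ± 0.62 (SD, n = 4 pairs). Irf7, the induced factor that amplifies interferon production, read 99.2, 96.1, 332 and 165 in the expansions and 39.4, 276, 81.6 and 57.6 in their partners. It was higher in the expansions of mice 1, 3 and 4 and lower in that of mouse 2. Its pair differences were 1.23, -1.47, 1.96 and 1.44, the mean 0.79 ± 1.54 (SD, n = 4; SE of limma 0.55, 95% interval -0.43 to 2.01, limma adjusted p = 0.9998). Stat2 was dim and untested: it read 5.61, 43.9, 62.3 and 26.6 against 75.1, 61.1, 47.4 and 6.58, and was above background on 4 of 8 arrays. Its pair differences ran from -2.92 in mouse 1 to 1.45 in mouse 4, sizes that rest on values below background.

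Cytosolic sensors and RNA responders were measured without a common direction: the mean was above 0 for 3 of 5 and below it for 2, the median was 0.18, and none passed. Ifih1, which encodes the sensor MDA5 of long double-stranded RNA, was the brightest of them, from 3805 in expansion 2 to 10451 in expansion 1, with pair differences of 0.56, -0.41, -0.65 and 0.19. Dhx58, encoding LGP2, a regulator of the RNA sensors, read 46.4, 71.5, 115 and 45.5 in the expansions and 46.2, 53.9, 31.6 and 29.7 in their partners. Each expansion was above its partner, in mouse 1 by 0.01 log2 units only, and the mean was 0.66 ± 0.74 (SD, n = 4; limma adjusted p = 0.9998). Only 4 of the 8 values were above background, and the other 2 Dhx58 probe sets, dimmer still, gave negative means down to -0.91. Eif2ak2 encodes the kinase PKR, which stops translation on binding double-stranded RNA. Its chosen probe set followed the mouse, with 112 and 104 in the partners of mouse 4 and between 190.1 and 506 elsewhere. The other 2 Eif2ak2 probe sets, dimmer, did not: they read 113 and 44.6 in expansion 4 and 15.0 and 3.40 in its partner. Adar, which edits adenosine to inosine in double-stranded RNA, read 112, 248, 377 and 515 against 159, 549, 682 and 408. It was lower in the expansions of mice 1, 2 and 3 and higher in that of mouse 4, at -0.54 ± 0.63 (SD, n = 4). The other Adar probe sets gave means of 0.00 and 0.25. Zbp1, a sensor of Z-form nucleic acid, had its widest gap in pair 1 (235 against 74.8) and differences between -0.67 and 0.11 in the alpha4-low pairs; a further Zbp1 probe set had a mean of -1.24 against 0.20 for this one, and -1.64 over the alpha4-low pairs (unadjusted p = 0.0399, limma adjusted p = 0.963).

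The IFIT genes encode proteins that bind foreign RNA and block its translation, and they are among the most strongly induced genes of the response. All 3 were well above background on every array. Ifit1 read 1497, 1047, 611 and 2008 in expansions 1 to 4 and 819.7, 851, 976 and 1215 in their partners, and its mean difference was 0.30 ± 0.69 (SD, n = 4). Ifit2 ran from 2038 to 9498 in the expansions and from 3903 to 6698 in the polyclonal samples (-0.27 ± 0.73). Ifit3 ran from 895 to 2032 and from 712 to 2632 (0.02 ± 0.39). The 3 genes lie close together on chromosome 19 but shared no pattern over the mice: in pair 1 Ifit1 and Ifit3 were higher in the expansion and Ifit2 lower, in pair 2 all 3 were higher, in pair 3 all 3 were lower and in pair 4 Ifit1 alone was higher.

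Of the ISG15 system, which attaches the small protein Isg15 to targets, Usp18 was measured; it removes Isg15 and also blocks the interferon receptor. Usp18 read 482, 596, 1668 and 1557 in the expansions and 1406, 1305, 910.3 and 2247 in their partners. The expansion was lower in mice 1, 2 and 4 and higher in mouse 3, and the groups overlapped. The mean difference was -0.58 ± 1.05 (SD, n = 4; SE of limma 0.41, 95% interval -1.49 to 0.33, limma adjusted p = 0.9998).

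Enzymes of the OAS family, though not every member, make the second messenger that activates RNase L, which degrades RNA in infected cells. Oas1a, the brightest member, read 518, 374, 994 and 338 in the expansions and 248, 1144, 777 and 164 in their partners; pair 2 went against the others. Oas3 was at 25.1 in expansion 1 and between 118 and 153 in the other expansions, and at 60.6, 136, 73.4 and 99.5 in the partners. Oas2 read 14.4, 53.3, 157 and 7.01 in the expansions and 54.1, 12.8, 86.1 and 75.7 in the polyclonal samples. With 5 of 8 values above background and pair differences from -2.75 to 1.71, it had no stable direction (-0.46 ± 2.07, SD, n = 4, not tested). Oasl2 ran from 59.0 to 317 in the expansions and from 132 to 209 in the polyclonal samples, and Oasl1, untested, from 2.7 to 159 and from 7.27 to 94.8. Of the 5 genes, 2 had a mean above 0 and 3 below it (median -0.11), and none passed the threshold.

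Mx1 and Mx2 are genes of a GTPase family whose intact proteins trap viral particles. Whether these mice make such proteins was not tested. Mx1 read 1199.6, 1336, 2695 and 1788 in expansions 1 to 4 and 861, 1897, 1212 and 2096 in their partners, higher in the expansions of mice 1 and 3 and lower in those of mice 2 and 4 (0.22 ± 0.74, SD, n = 4). Mx2 lay between 3.83 and 13.3 on every array, under the background of each.

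Rsad2, Cmpk2 and Isg20 encode enzymes: viperin, which makes a nucleotide that ends viral RNA chains, a kinase that supplies its substrate, and an exonuclease of single-stranded RNA. Rsad2 and Cmpk2 are neighbours on chromosome 12. Rsad2 read 6085, 2303, 1268 and 5124 in the expansions and 5159, 1578, 2320.4 and 5472 in the polyclonal samples: both samples of mice 1 and 4 were high and both of mice 2 and 3 low. Cmpk2 read 1016, 405, 1448 and 3018 against 1016, 323, 1413 and 1814, with the widest gap between partners in mouse 4 (0.73), followed by mouse 2 (0.33). The mean differences were -0.05 ± 0.61 for Rsad2 and 0.27 ± 0.34 for Cmpk2 (SD, n = 4). Isg20 was higher in the expansions of mice 1 and 4 by 0.99 and 0.98 and lower in that of mouse 2 (-1.33).

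Membrane restriction factors keep virus from entering or leaving the cell. Ifitm1 lay between 80.2 and 238 in the expansions and between 109 and 178 in the polyclonal samples, with pair differences from -0.65 to 0.41 (mean 0.00 ± 0.47, SD, n = 4). Ifitm3 was above background in expansion 1 alone, at 126, and at or below 35.4 elsewhere. Bst2, which encodes tetherin, a protein that holds budding virus at the cell surface, had the widest spread of all members and is described with the subclasses.

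The PARP, TRIM and ubiquitin ligase genes were among the brightest members. Parp14, an ADP-ribosyltransferase, read 7367, 4304, 8169 and 4590.4 in expansions 1 to 4 and 8432, 6783, 7185 and 12689 in their partners. The expansion was lower in mice 1, 2 and 4, most in mouse 4 (-1.47), with a mean of -0.53 ± 0.71 (SD, n = 4; 95% interval of limma -1.24 to 0.17). The other, dimmer Parp14 probe set was lower in all 4 expansions, from -0.04 in mouse 1 to -2.62 in mouse 2, at a mean of -0.92 (unadjusted p = 0.0654, limma adjusted p = 0.9998), and at -1.21 over the alpha4-low pairs (unadjusted p = 0.0293, limma adjusted p = 0.939). Its partner genes Parp9 and Dtx3l, whose products form a complex, had mean differences of -0.10 ± 0.39 and 0.03 ± 0.46. By a probe set that can match several transcripts, Trim25, the ubiquitin ligase that activates the RNA sensor RIG-I, read 7317, 15055, 13594 and 8959 against 17064, 12015, 9320.4 and 21116. Its expansions of mice 1 and 4 were lower by more than 1 log2 unit and those of mice 2 and 3 higher (-0.40 ± 0.96), and its other probe sets had means of -0.88 and -0.07. Trim30a, a damper of inflammatory signalling, read 6352, 7856, 13878 and 9172 against 6814, 8510.3, 6693 and 7933, with expansion 3 the high sample (0.26 ± 0.55). A further Trim30a probe set showed the opposite in mouse 3, 2898 in the expansion and 5817 in the partner; the probe sets of this gene disagree in sign.

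The remaining induced genes held the pair differences that varied least. Samd9l, which restrains translation and virus growth, had the smallest spread of pair differences after Xaf1: it read 11990.1, 14689, 16969 and 16051 in the expansions and 11554, 11562, 12260.2 and 14142 in their partners. Every expansion was above its partner, by 0.05, 0.35, 0.47 and 0.18, yet the groups overlapped, and the mean of 0.26 ± 0.18 did not pass (SD, n = 4; SE of limma 0.24, limma adjusted p = 0.9998). Xaf1, a proapoptotic gene, read 342, 475, 480.0 and 319 against 316, 426, 461 and 311, again higher in each expansion, by at most 0.15. The other Xaf1 probe set gave 0.52. With Dhx58 these were the only tested members with the same sign in all 4 pairs, 3 higher and 0 lower of 31, beside 4.79% and 6.05% of all tested probe sets (10.8% in either direction). These counts use the chosen probe sets. Groups that did not overlap were found for 0 of 31 members, beside 1.35% of all.

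Sp100, a nuclear body gene, read 1582, 1551, 941 and 1058 in the expansions and 1339, 1929.9, 1962 and 1641 in their partners. It was higher in the expansion of mouse 1 and lower in the 3 alpha4-low expansions, at a mean of -0.44 ± 0.55 (SD, n = 4; limma adjusted p = 0.9998). The other, dimmer Sp100 probe set was lower in all 4 expansions, at -0.89 (unadjusted p = 0.0464, limma adjusted p = 0.9998), and at -1.14 over the alpha4-low pairs (unadjusted p = 0.0247, limma adjusted p = 0.939). Ifi35 read 8492, 7258, 20819 and 4656 against 5030.2, 13950.5, 8575 and 4651; this probe set can match several transcripts, and the other 2 of the gene had negative means of -0.20 and -0.99. Ifi27, a gene of a mitochondrial protein, and Rtp4, a chaperone of surface receptors, had mean differences of 0.06 ± 0.92 and -0.20 ± 0.39. The chosen Ifi27 probe set can also match several transcripts. In all, 16 members had more than 1 probe set, and in 9 of them the probe sets differed in the sign of the mean: Dhx58, Eif2ak2, Zbp1, Adar, Dtx3l, Trim30a, Rtp4, Ifi35 and Ifi27.

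The alpha4-low expansions were then tested apart. Over mice 2, 3 and 4, 13 members were above 0 and 23 below it, at a median of -0.09, beside -0.07 and 44.5% positive over all tested probe sets. None of the 31 passed a limma adjusted p of 0.05 (0.0533% of all did), and by the chosen probe set 1 had an unadjusted p under 0.05, Bst2, beside 5.11% of all. For 6 members (19.4%) the 95% interval lay within 1 log2 unit of 0, against 10.6% of all. When the difference of the alpha4-low pairs was set against that of the single alpha4-high pair, 13 members were positive and 23 negative, with a median of -0.34 (-0.10 over all tested probe sets). Again 0 of 31 passed (0.0533% of all) and Bst2 alone had an unadjusted p under 0.05 (6.57% of all). No interval was narrower than 1 log2 unit on both sides, and 4 lay within 2, so the comparison with 1 alpha4-high pair leaves large differences undetectable. Members with all 3 alpha4-low pairs on the opposite side of pair 1 numbered 4 of 31 (Oas3, Cmpk2, Bst2 and Sp100), beside 14.2% of all.

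Bst2 read 66.5, 82.2, 91.4 and 29.8 in expansions 1 to 4 and 17.5, 764, 410.0 and 52.7 in the polyclonal samples. The polyclonal samples of mice 2 and 3 were the high ones, and expansion 4 and polyclonal sample 1 were under the background of their arrays. The difference was 1.67 in pair 1 and -3.14, -2.11 and -0.73 in the alpha4-low pairs. Over the alpha4-low pairs it was -1.99 (SE 0.56, 95% interval -3.20 to -0.78, unadjusted p = 0.00364, limma adjusted p = 0.663), and the difference between subclasses was -3.66 (limma adjusted p = 0.428). Neither passed with all mice. Without mouse 4, whose gap was the smallest, the alpha4-low difference was -2.62 (limma adjusted p = 0.0199) and that between subclasses -4.29 (limma adjusted p = 0.0282), both past the threshold. Leaving mouse 4 out kept alpha4-low pairs 2 and 3 alone, whose polyclonal samples were the least pure. That fit also called more of all tested probe sets over the alpha4-low pairs than the fit with all mice. With sort purity as a covariate the differences were -1.01 and -2.33 and did not pass. The purity fit had nearly as many coefficients as arrays, and purity and subclass can hardly be told apart in it. Without the mouse as a block the values were -1.10 and -0.11, but of other contrasts. The first set the alpha4-low expansions against all 4 polyclonal samples, the second against expansion 1. The mean over all pairs, -1.08, turned to 0.12 with purity as a covariate and to 0.47 over pairs 1 and 4 alone, none past the threshold.

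The high Bst2 values stood in the polyclonal samples of 75 and 66% purity. Bst2 is a surface marker of plasmacytoid dendritic cells, the main makers of type I interferon. The summed signal of 6 markers of these cells was 407, 179, 378 and 305 in expansions 1 to 4 and 343, 428, 587 and 222 in their partners. It was higher in the expansions of mice 1 and 4 and lower in those of mice 2 and 3. Of the 6, 4 and 6 were above background in the polyclonal samples of mice 2 and 3, 2 in those of mice 1 and 4, and 4, 0, 3 and 4 in expansions 1 to 4. Over the alpha4-low pairs 1 of the 3 tested markers was above 0 and 2 were below it. Siglech, a defining surface marker, read 68.4, 41.3 and 43.0 in the polyclonal samples of mice 2, 3 and 4, all above background, and 28.2 or less in the other 5 samples. Tcf4, the transcription factor that sets the identity of these cells, read 195 and 175 in the polyclonal samples of mice 2 and 3 against 45.2 and 44.0 in their expansions, but 177 in expansion 1. Cd4 read 43.9 and 101 there and at most 17.4 elsewhere, but the summed signal of the 4 markers of CD4 T cells was 300.2, 277, 279 and 345 in the expansions and 181, 277, 419 and 236 in their partners, equal in mouse 2, and its 3 tested members had means above 0. The B cell gene Cd79a read 148 and 93.8 in the polyclonal samples of mice 2 and 3 and was lower in the expansion in all 4 pairs, most in mouse 4 (-1.06), whose partner had 97% purity. Over the whole B cell list the sum was higher in expansion 2 (39304) than in any other sample. The NK cell list summed to 41394, 19278, 22385 and 23752 in the expansions and 26654, 43013, 25978 and 51554 in their partners. Over the alpha4-low pairs its 4 tested genes were all below 0 (median -1.35, none past the threshold). The conventional dendritic cell, monocyte and neutrophil lists had medians of 0.06, 0.06 and 0.41 over these pairs. The sort was for CD8+ CD122+ MHC II- cells, and which other cells the samples of 75 and 66% purity held was not tested. The part of any of these cell types in the Bst2 difference was not tested, and purity entered only as the covariate above.

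**Figure D3:**
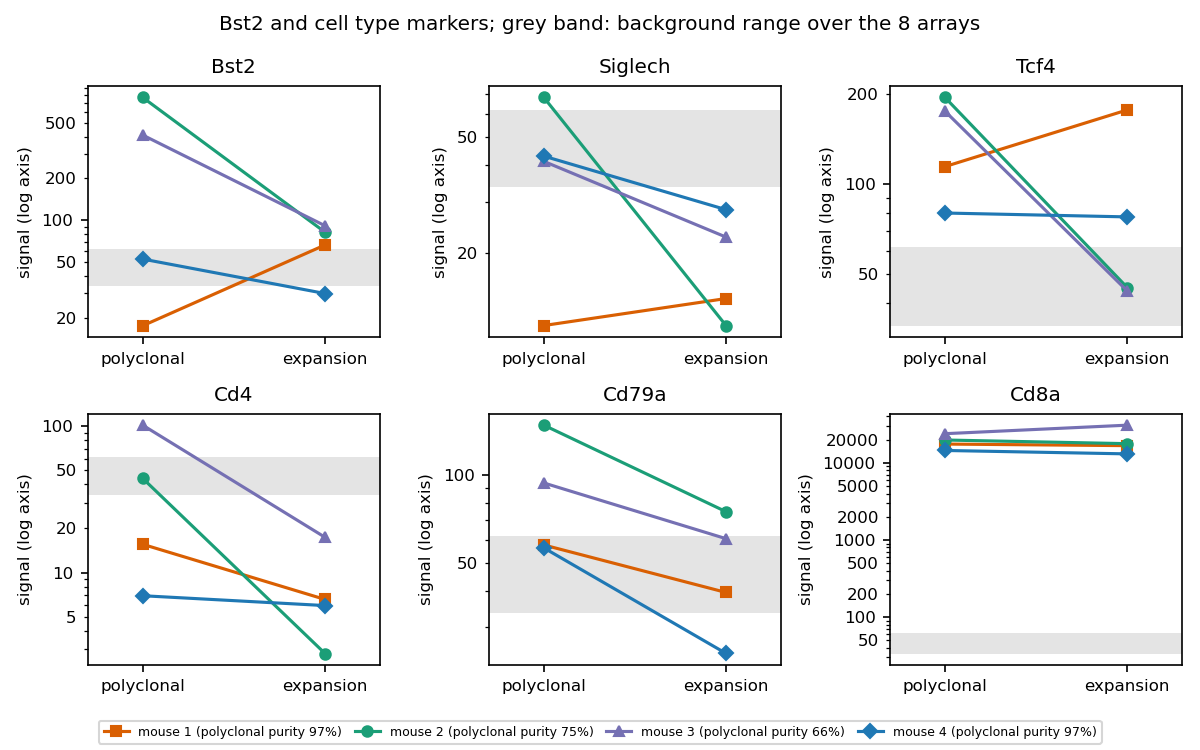
Signal (log axis) of Bst2, of the plasmacytoid dendritic cell markers Siglech and Tcf4, of Cd4, of the B cell marker Cd79a and of Cd8a in the polyclonal and expansion sample of each mouse; lines join the partners and the grey band is the range of background over arrays. Bst2 and Tcf4 are widest apart between the partners of mice 2 and 3, Cd4 and Cd79a are lower in the expansion in all 4 pairs, and Cd8a lies between 13073 and 30815 throughout.

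Part of the variation was shared by the samples of a mouse, among the members and among all tested probe sets. For 15 of 31 tested members (48.4%) the range of the 4 mouse means was larger than the largest difference within a pair, against 41.7% of all tested probe sets. These were, by the chosen probe sets, Ifit1, Ifit2, Ifit3, Oas1a, Oas3, Ifih1, Eif2ak2, Adar, Rsad2, Cmpk2, Ifitm1, Parp9, Xaf1, Rtp4 and Ifi35. The deviations of the 2 partners from their group means correlated over the 31 members with r of 0.246, 0.204, 0.288 and 0.701 in mice 1 to 4, and over all tested probe sets with 0.374, 0.0771, 0.214 and 0.338. The points are genes that share their arrays, so r is a description. In mouse 4, 25 of 31 members deviated from their group means to the same side in both samples, and in mice 1 to 3 between 17 and 18. The same share over all tested probe sets was not computed, so these counts are not read as particular to the members. By the same probe sets, Ifit1, Cmpk2 and Rtp4 were highest of their group in both samples of mouse 4. Rtp4 read 5559.8 and 4823 there against at most 3448 elsewhere, and Oas1a, Dhx58, Eif2ak2, Xaf1 and Ifi35 were lowest in both. These 3 of 31 (9.68%) and 5 of 31 stand beside 4.07% and 10.6% of all tested probe sets for mouse 4. Mouse 1 had 2 members (6.45%) highest and 5 lowest in both samples, beside 6.66% and 16.7% of all tested probe sets. Mouse 2 had 1 (3.23%) and 3, beside 7.48% and 5.64%, and mouse 3 had 1 (3.23%) and 1, beside 13.4% and 4.99%. Mouse 4 was the only B10.BR animal, so strain and mouse cannot be told apart.

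**Figure D4:**
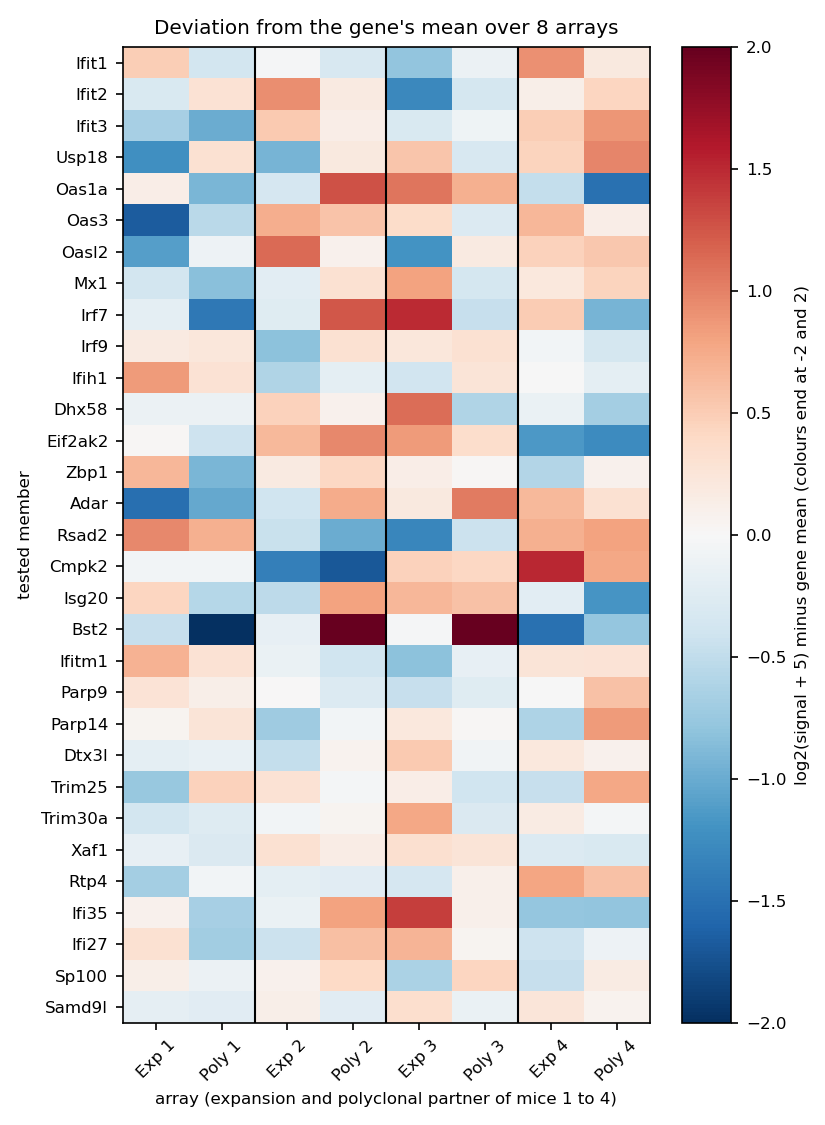
Level of each of the 31 tested members on each array as its deviation from the gene's mean, in log2 units (red above, blue below; colours end at -2 and 2), with vertical lines between mice. In 0 of the 31 rows do the expansions and the polyclonal samples separate without overlap, and Bst2 stands out in the polyclonal samples of mice 2 and 3.

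The rest of the pathway gave no difference past the threshold in any of the 3 comparisons. Among interferon and interferon receptor genes, 16 of 24 had a probe set and 6 were tested, 2 positive and 4 negative over all pairs with a median of -0.08. Of the type I ligands, Ifna1, Ifna2, Ifna4, Ifna9 and Ifnab were above background on 0 of the 8 arrays, Ifnb1 on 2, and Ifna5 and Ifna11 on 3 each. Ifnz, also named as an interferon gene, was above background on all 8, between 168 and 494, with a mean difference of -0.09. Both receptor genes were above background on all 8 arrays. Ifnar1 read 511, 446, 955 and 240.3 in the expansions and 327, 737, 687 and 274 in their partners (mean difference 0.05). Ifnar2 had a mean difference of 0.19, by a probe set that can match several transcripts. Ifng, the type II interferon that effector T cells secrete, read 5875, 15926, 701 and 558 against 3487, 10780.0, 3202 and 3395. It was higher in the expansions of mice 1 and 2 and lower in those of mice 3 and 4, at -0.87 over all pairs and -1.41 over the alpha4-low pairs (unadjusted p = 0.0244, limma adjusted p = 0.939).

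Of the signalling genes and negative regulators, 16 of 19 were tested, 5 positive and 11 negative, with a median of -0.10. Stat3 and Ptpn2, a phosphatase gene that dampens the pathway, had the smallest p, at mean differences of -0.55 and 0.40, and Irf1, an early induced factor, was at -0.09. Socs1, a receptor-proximal inhibitor, was too dim to be tested. Of the nucleic acid sensing genes, 16 of 22 were tested, 5 positive and 11 negative, with a median of -0.21. Aim2, the inflammasome sensor of cytosolic DNA, read 156, 13.8, 5.19 and 40.7 in the expansions and 44.1, 166, 767 and 47.4 in their partners. The polyclonal samples of mice 2 and 3 were again high, and the alpha4-low difference of -3.21 did not pass (unadjusted p = 0.00359, limma adjusted p = 0.663). Tlr7, a receptor for single-stranded RNA, had -1.35 over the same pairs (unadjusted p = 0.0452, limma adjusted p = 0.966).

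Other interferon-stimulated genes, 34 of 51 tested, were 17 positive and 17 negative over all pairs, with a median of 0.00. Rnf213, a large ubiquitin ligase gene, was lower in every expansion: it read 718, 1925, 838 and 1393 against 1295, 2181, 1389 and 3206. Its mean of -0.74 ± 0.42 (SD, n = 4) had an unadjusted p of 0.0421 but a limma adjusted p of 0.9998. Trim14 and Mndal followed, at -0.67 and 0.37, neither past the threshold. In the difference between subclasses, 4 of the 34 had an unadjusted p under 0.05, beside 6.57% of all tested probe sets. These were Ifi27l2a (-2.63), Slfn2 (-2.52), Slfn5 (-2.11) and Ifitm2 (-2.84), named after their values were seen, and none passed (limma adjusted p from 0.446 for Ifi27l2a to 0.753 for Slfn2).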

How the data were processed

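RNA of 8 sorted samples was isolated in parallel, amplified in a double procedure, labelled with biotin and hybridised to 1 array each, per the labels' protocols. The deposited values are a linear signal intensity per probe set, made by the authors with MAS5 per the submitters' processing notes (version not given in the sources used here). All arrays share a 2% trimmed mean of 500, and changes in the RNA content of a cell cannot be seen. Double amplification favours 3' ends.

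Signals were taken as log2(value + 5), which understates changes of dim genes. Control probe sets (64) were left out, and the 22518 probe sets with a mean log2 value above the median (signal of about 45.3) were tested with limma 3.58.1 in R 4.3.3 (lmFit, eBayes with an intensity trend, two-sided, Benjamini-Hochberg over all tested probe sets, threshold 0.05), which was tested on simulated data. The block is the mouse: the series' design text states that partners came from the same animal, and in the labels partners share the Vb chain they were sorted on. The descriptions of expansions 3 and 4 carry the numbers 4 and 5; the titles' numbers were used. A fit with separate alpha4-high and alpha4-low coefficients gave the subclass comparisons; the adjusted p of each is limma's. Probe sets were named from GEO's platform annotation, which can be old.

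All 39 members are accounted for by role. Values of all arrays are given for members with an unadjusted p under 0.05, the 10 with the largest mean difference, the 5 brightest and those of 1 sign in all pairs, with others added for their family. The members and lists were chosen with earlier results of these data known. Alternatives covered the pseudocount, filter, scaling, variance prior, block, purity, probe set choice and each mouse left out.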

Additional observations from a re-analysis of the deposited data

Results flagged for a closer look

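In 72 groups of 4 samples (36 members, expansion and polyclonal), 2 samples stood far from the other 3 of their group by Dixon's criterion at 95%, which chance meets in about 1 of 20 groups. Oas3 read 25.1 in expansion 1, against 118 to 153 in the other expansions, and was below background there. Irf9 read 843 in polyclonal sample 4, against 1259 to 1342 in the other polyclonal samples.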

How the results depend on the processing

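The number of members past the threshold stayed at 0 over all pairs under all 18 alternatives run. Over the alpha4-low pairs it stayed at 0 under 16 of 17 and for the difference between subclasses under 15 of 16. The exception in both was the analysis without mouse 4, with 1 member, Bst2; leaving out each mouse in turn gave 0 to 1. Without the pairing by mouse (no block) the count was 0 in all 3 comparisons, but the difference between subclasses then compared expansions alone. Without mouse 1 the difference between subclasses cannot be computed. The median member difference lay between -0.16 and 0.12 over all pairs, between -0.17 and 0.08 over the alpha4-low pairs and between -0.01 and 0.25 in pair 1. The group difference of the array medians lay between -0.24 and -0.0016. Scaling arrays to the same median moved the median of all probe sets in the difference between subclasses from -0.10 to 0.17. Of 31 tested members, 17 changed the sign of their mean difference over all pairs under some alternative, none while past the threshold. Over all probe sets the alpha4-low comparison called 12, and from 0 (without the block) to 148 (without mouse 4) under the alternatives. The difference between subclasses called 12, and from 0 (quantile normalization) to 266 (without mouse 3), and all pairs together called 0, but 20 without mouse 1. The analyses without pairs 2 and 3 and without probe sets that can match several transcripts were chosen after seeing the data. What limits the results is the number of mice, 1 alpha4-high pair, and signal near background for Oas2, Oasl1, Mx2, Stat2, Ifitm3 and Dhx58.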
